A study of Mus musculus with 70 samples.

Results

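The genes described here are 10 markers by which macrophages at the borders of the brain and blood monocytes are told apart from microglia: Mrc1, Siglec1, Cd163, Lyve1, Pf4, Ms4a7, F13a1, Plac8, Itgal and Ccr2. They were followed through every count table of a study of tamoxifen in the Cx3cr1CreERT2 mouse lines called Littman and Jung, to see which of them changed in sorted microglia and whether defining markers of other cells moved beside them. The members were picked by gene symbol, and 9 of the 10 had a row among the 25806 distinct gene identifiers of the series. Lyve1 is not analysed here, and Cd163 had a row in 1 table, with 1 count in 1 library. The 70 libraries, in 17 groups, each came from 500 cells sorted as CD11b+ CD45+ Ly6G- CD206- out of perfused brains and were made by CEL-Seq2, a bulk 3' tag method with molecular identifiers.

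Border macrophages live in the meninges, the perivascular space and the choroid plexus. They share a myeloid origin with microglia but carry the mannose receptor CD206, the product of Mrc1, which microglia of the adult brain hardly make. Monocytes are short-lived blood cells that enter tissue through the chemokine receptor CCR2 and the integrin LFA-1. The sort removed cells with CD206 protein on the surface, so a count of Mrc1 RNA comes from cells that passed this gate. In bulk libraries, fewer cells of a type and less RNA per cell cannot be told apart.

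The postnatal pups formed 4 groups. Littman Cre- pups were Cx3cr1+/+ wild type (5 libraries) and Littman Cre+ pups were Cx3cr1CreERT2(Litt) heterozygotes (5), all given tamoxifen. Jung pups were Cx3cr1CreERT2(Jung) and Rosa26YFP heterozygotes given oil (5) or tamoxifen (4). A further table held pups of the Littman line given the vehicle of an inhibitor: Cre- with tamoxifen (5), Cre+ with oil (4) and Cre+ with tamoxifen (4). It also held pups given UC2288, used in the study to inhibit CDKN1A, together with tamoxifen: Cre- (3) and Cre+ (5). Pups had 0.1 or 0.2 mg tamoxifen per injection and were 8 or 14 days old, but neither the schedule nor the age is given per sample. The adults, aged 6 to 15 weeks and given oil or 4 mg tamoxifen per injection, were Littman (4 and 3) and Jung (4 and 4) heterozygotes. In the table titled BLZ they were Littman heterozygotes after BLZ945, a CSF1R inhibitor that depletes microglia (oil 3, tamoxifen 4), and Jung heterozygotes with Rosa26YFP (4 and 4). For both adult Jung sets the treatment label goes against the title on BLZ945, and the titles defined the groups. In every Cre+ animal Cre also replaces 1 copy of Cx3cr1, so against wild type the Cre and the missing copy cannot be told apart, whereas the oil-treated Cre+ pups carry both. Nothing in the labels tells whether replicates came from separate animals, so p-values measure the spread between these libraries, which may be technical. Xist counts exceeded Y-linked counts in 3 of the 5 postnatal Littman Cre+ libraries, so these were not all from 1 animal. In BLZ-titled Littman mice this held for 0 of 3 oil and 3 of 4 tamoxifen libraries, so sex and tamoxifen are partly mixed there.

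Library totals ran from 116083 to 450461 counts, lowest in the vehicle and UC2288 table (116083 to 277680) and highest in the postnatal table (329329 to 450461). Values are counts scaled to the library total (CPM) as mean ± SD, and log2 fold changes ± SE and adjusted p-values come from edgeR unless stated. Cx3cr1 was lower in Cre+ than in Cre- pups in both Littman sets (log2 fold change -1.43 ± 0.0706 postnatally and -1.53 ± 0.21 with vehicle; edgeR adjusted p = 4.20e-21 and 1.48e-06). The neutrophil list, at or below 18 CPM elsewhere, summed to 1174 CPM in postnatal Littman Cre- replicate 2 and 701 CPM in UC2288 Cre- replicate 1, and to 2951 and 2535 CPM in 1 BLZ Littman oil and 1 BLZ Littman tamoxifen library. UC2288 Cre+ replicate 3 stood apart from its group: its 13 homeostatic microglia genes summed to 25681 CPM against 9190 to 10571 CPM in the other 4, its 21 type I interferon genes to 2995 against 5704 to 8114 CPM, and its Cx3cr1 to 1803 against 651 to 917 CPM.

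All members are protein-coding genes, given here with their GRCm38 coordinates. Mrc1 lies at chr2:14229392-14332057, Siglec1 at chr2:131069220-131086765, Pf4 at chr5:90772435-90773383, Plac8 at chr5:100553725-100572245, Itgal at chr7:127296260-127335138, Ccr2 at chr9:124101950-124113557, F13a1 at chr13:36867178-37050244 and Ms4a7 at chr19:11321039-11336146. Mrc1 overlaps the microRNA gene Mir511 on its own strand, and F13a1 overlaps 2 predicted genes on the other strand. The strand setting of the counting is not given in the sources used here.

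The promoters of Mrc1 and Pf4, border macrophage genes, and of Plac8, the member with the highest counts among those that rose in the vehicle and UC2288 table, are shown because their RNA took different courses in the pups. RefSeq promoter sequences of GRCm38.p6, 250 bases before to 50 bases after the gene start, were found for 7 of the 10 members. Capitals mark matches to GAGGAAG on either strand, a core of the site of PU.1, the transcription factor that macrophages and microglia depend on. They run from chr2:14229164-14229463 on the plus strand, chr5:90772185-90772484 on the plus strand and chr5:100572156-100572455 on the minus strand.
Mrc1: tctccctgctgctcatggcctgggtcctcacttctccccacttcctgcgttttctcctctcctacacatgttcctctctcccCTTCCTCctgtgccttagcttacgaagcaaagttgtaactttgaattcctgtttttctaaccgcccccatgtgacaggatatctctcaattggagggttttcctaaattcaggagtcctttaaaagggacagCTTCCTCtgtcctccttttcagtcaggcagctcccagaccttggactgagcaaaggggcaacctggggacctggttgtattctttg
Pf4: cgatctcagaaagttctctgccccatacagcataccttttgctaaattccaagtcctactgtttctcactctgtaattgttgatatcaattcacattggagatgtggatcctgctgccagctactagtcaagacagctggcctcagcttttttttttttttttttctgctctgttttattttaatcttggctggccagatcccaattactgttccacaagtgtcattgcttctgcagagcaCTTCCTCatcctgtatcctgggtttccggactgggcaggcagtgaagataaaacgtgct
Plac8: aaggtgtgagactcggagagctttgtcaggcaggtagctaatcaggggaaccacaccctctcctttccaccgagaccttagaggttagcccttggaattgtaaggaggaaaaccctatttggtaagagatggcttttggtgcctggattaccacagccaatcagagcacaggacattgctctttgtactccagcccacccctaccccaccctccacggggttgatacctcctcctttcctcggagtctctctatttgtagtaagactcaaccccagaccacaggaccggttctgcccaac
Mrc1 held 2 matches, Pf4 1 and this Plac8 promoter 0, and 13.6% of the 32851 promoters hold the motif. Of the members not printed, F13a1 held 2 and 1 in its 2 promoters, and Cd163, Ms4a7 and Ccr2 held 0. The core of the interferon-stimulated response element, GAAA and GAAA with a gap of 2 bases between them, is in 3.44% of promoters, and TTCNNNGAA, the gamma-activated site, is in 8.30%. Neither string was in a promoter window of these 7 members, which says only that these letters are not in these windows. The 3 motifs were searched on both strands, and the sequences to print were chosen after the matches were seen.

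In pups without Cre, or with Cre and oil, Mrc1 was the one member with substantial counts. It had 30 to 48 counts in each postnatal Littman Cre- library (103 ± 14.4 CPM, n = 5) and 21 to 38 in each Jung oil library (84.5 ± 16.9 CPM, n = 5). In the vehicle table it stood at 320 ± 60.3 CPM in Cre- (n = 5) and 296 ± 20.5 CPM in oil-treated Cre+ pups (n = 4). The tables were made separately, so the step between them is not a test. In adults Mrc1 nearly vanished: group means ran from 1.31 to 6.92 CPM, and no adult library had more than 6 counts. F13a1, which encodes a coagulation factor subunit found in border macrophages and monocytes, reached at most 2 counts in any library, and Cd163, a haemoglobin scavenger receptor, had its single count in a vehicle Cre- library.

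After tamoxifen in postnatal pups, libraries with the Littman Cre had more RNA of Plac8, Itgal and Pf4, and a higher Mrc1 level that rested on 2 of the 5 libraries. Plac8, a small cysteine-rich protein abundant in monocytes and inducible in other myeloid cells, was 4.97-fold higher by pooled CPM, and Mrc1 was 1.48-fold higher. The integrin gene Itgal, which encodes the alpha chain of LFA-1, and Pf4, the chemokine platelet factor 4 that border macrophages also make, were low in every Cre- library and higher in all 5 Cre+ libraries. Ccr2, the monocyte chemokine receptor, had 17 counts in Cre- and 13 in Cre+ and was not called.

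Plac8 had 2, 3, 0, 5 and 5 counts in Cre- replicates 1 to 5 and 25, 7, 11, 13 and 28 in Cre+ replicates 1 to 5. The ranges did not overlap in CPM either (8.17 ± 5.99 against 39.0 ± 20.1). The log2 fold change was 2.30 ± 0.44 (edgeR adjusted p = 0.000207, n = 5 and 5).

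Mrc1 had 42, 41, 48, 34 and 30 counts in Cre- and 80, 41, 39, 60 and 104 in Cre+. Cre+ replicates 1 and 5 stood above all others, and replicates 2 and 3 lay within the Cre- range. The log2 fold change was 0.60 ± 0.18 (edgeR adjusted p = 0.0297). It rested on those libraries: without Cre+ replicate 5 it was 0.37 (edgeR adjusted p = 0.271), without Cre+ replicates 1 and 5 it was 0.15 (0.802), and 5 of the 10 fits that left out 1 library lost the call. DESeq2 (adjusted p = 0.148) and limma-voom (adjusted p = 0.0840) did not call it.

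Pf4 had 1, 1, 0, 1 and 0 counts in Cre- and 27, 5, 2, 5 and 12 in Cre+. The groups did not overlap, and again Cre+ replicates 1 and 5 were highest. The ratio of pooled CPM was 15.1 with an exact 95% interval of 4.88 to 75.6, which covers counting error only, as do all such intervals here. Pf4 fell under the low-count filter, and without the filter edgeR called it (adjusted p = 7.10e-07).

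Itgal had 1, 1, 2, 0 and 1 counts in Cre- and 18, 4, 8, 6 and 17 in Cre+, again without overlap and with replicates 1 and 5 on top. It was also under the filter, and without it the log2 fold change was 3.12 ± 0.56 (edgeR adjusted p = 4.11e-06). Leaving out each library in turn kept the calls of Itgal, Pf4 and Plac8 in all 10 unfiltered fits.

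The remaining members were near the floor. Siglec1, the sialic acid receptor CD169 of border and other macrophages, had 1 count over the Cre- libraries and 5, 0, 2, 2 and 2 counts in Cre+, a ratio of 9.77 (1.42 to 421, unfiltered edgeR adjusted p = 0.161). Ms4a7, a membrane protein used to mark border macrophages, had 0 counts in Cre- and 4, 0, 0, 4 and 1 in Cre+, at least 2.66-fold higher if 3 counts are set for the Cre- group (unfiltered edgeR adjusted p = 0.0544). F13a1 was at 0 in all 10 libraries, which allows up to 3 counts over a group. Ccr2 had 4, 9, 1, 3 and 0 counts in Cre- and 1, 1, 5, 5 and 1 in Cre+, with overlapping ranges, a ratio of 0.679 (0.303 to 1.48) and an unfiltered edgeR adjusted p of 0.775.

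Mrc1 and Plac8 passed the filter, 2 of the 8 members measured here, and both were called higher, where 4.56% of the 7076 genes tested were called higher. Plac8, Itgal and Pf4 were higher without overlap, as were 1.2% of the 19820 genes of the table. Without the filter 4 members were called higher, as were 1.84% of all genes. A member that is low in one group passes the filter through the group where it is high, so these counts do not measure how often such markers change.

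**Figure D1:**
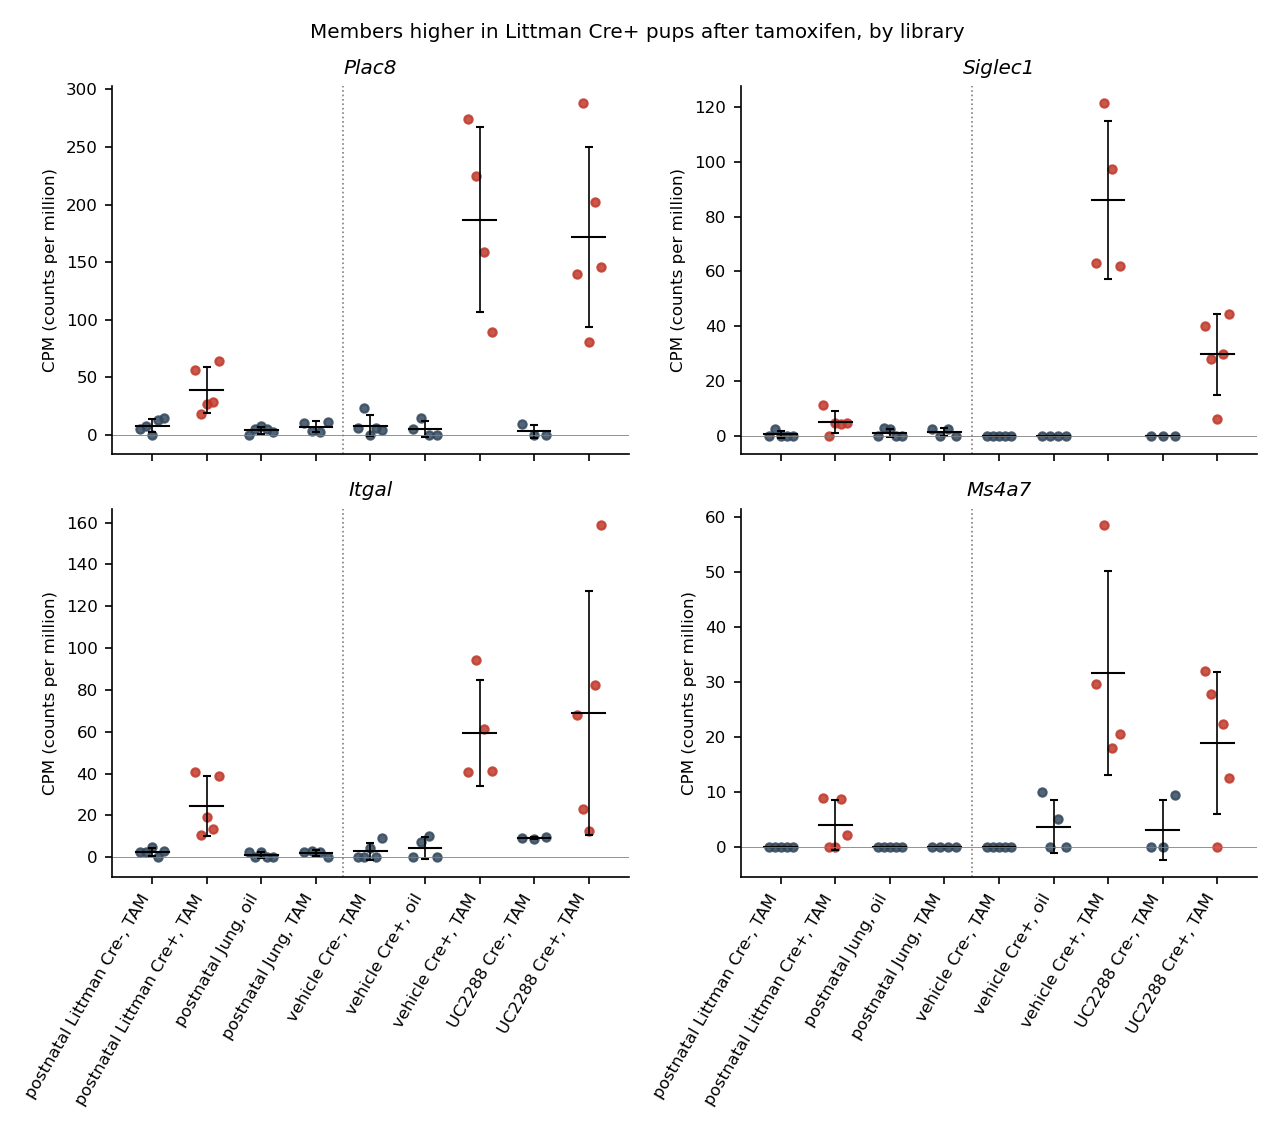
CPM of Plac8, Siglec1, Itgal and Ms4a7 in each library of the 9 pup groups. Points are libraries, bars are group means and error lines are SD. Plac8 and Itgal are higher in postnatal Littman Cre+ than in every postnatal Littman Cre- library. By group mean, all 4 genes are highest in the Cre+ tamoxifen pups of the vehicle and UC2288 table.

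Other markers moved in these same Cre+ libraries, and their part in the member values was not tested. Among 12 further border macrophage genes 2 passed the filter. Dab2, an endocytic adaptor, rose by 0.77 ± 0.17 on the log2 scale (edgeR adjusted p = 0.00125), and Stab1 was not called. The 6 of these 12 with a row summed to 141 to 219 CPM in Cre- and 208 to 291 CPM in Cre+, most of it from Dab2 and Stab1. Cbr2, a carbonyl reductase of border macrophages, had 1, 1, 2, 2 and 0 counts in Cre- and 5, 4, 3, 6 and 9 in Cre+. Of 12 further monocyte genes Lyz2, lysozyme, passed the filter and rose by 1.61 ± 0.14 (edgeR adjusted p = 8.12e-13). Of the 9 further monocyte genes with a row, leaving out Lyz2, all 9 had counts in Cre- and 4 had counts in Cre+. Their summed CPM ran from 0 to 38.2 in Cre- (median 7.67) and from 18.6 to 95.1 in Cre+ (median 39.0). Fn1, fibronectin, went from 1 to 38 pooled counts, Cd44 from 3 to 31 and S100a4 from 3 to 22. The classical monocyte genes Ly6c2, Chil3 and Hp were all at 0 in the 5 Cre+ libraries. In Cre- the whole list without Lyz2 had 23 pooled counts, 15 of them in replicate 2 and 4, 3, 0 and 1 in replicates 1, 3, 4 and 5. The zeros in Cre+ therefore show no clear difference. Of 12 genes of other brain and blood cells 3 were tested, and the endothelial gene Pecam1 (-1.61 ± 0.37, edgeR adjusted p = 0.00204) and the astrocyte gene Slc1a3 (-0.48 ± 0.15, edgeR adjusted p = 0.0430) fell. In Cre- replicate 2, the library with the high neutrophil sum, Ly6c2 had 7 counts and Ccr2 9 counts. Without that library the log2 fold change of Plac8 was 2.29 (edgeR adjusted p = 0.000823) and that of Mrc1 0.61 (0.0506).

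Interferon genes moved in the same comparison: 13 of the 21 passed the filter and all 13 were called higher, as were 4.56% of genes tested. Their median log2 fold change was 2.05 against 0.00 over all genes. A gene low in Cre- can pass the filter through the Cre+ group, so nothing is read from the count. The summed level of the list ran from 248 to 378 CPM in Cre- and from 936 to 1137 CPM in Cre+. Of 13 homeostatic microglia genes 6 fell and 1 rose (median -0.24), and of 3 tested MHC class II genes 1 rose, H2-DMa, by 0.82 ± 0.14 (edgeR adjusted p = 5.46e-05). Siglec1 is known as an interferon-induced gene of myeloid cells, which is background and not a measurement here.

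In Jung pups no member was called after tamoxifen, where 0.0848% of genes were called. Mrc1 had 38, 33, 21, 38 and 31 counts with oil and 41, 21, 28 and 36 with tamoxifen, a log2 fold change of 0.06 ± 0.23 (edgeR adjusted p = 0.992). Plac8 had 0, 2, 3, 2 and 1 counts with oil and 4, 1, 1 and 4 with tamoxifen (0.70 ± 0.77, edgeR adjusted p = 0.976). Both genes overlapped between the groups. Pf4 and Ms4a7 were at 0 in all 9 libraries, Itgal had 2 pooled counts with oil and 3 with tamoxifen, Siglec1 2 and 2, and Ccr2 4 and 3. None of the 13 tested interferon genes was called (median 0.64). The Littman contrast is Cre+ against Cre- and the Jung contrast tamoxifen against oil. The test of their difference did not call Mrc1 (0.54 ± 0.29, edgeR adjusted p = 0.587) or Plac8 (1.61 ± 0.97, edgeR adjusted p = 0.644), where 0.353% of genes were called, so a difference between the lines was not shown for these members.

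In the vehicle table the split between members was wider. With tamoxifen and Cre, Plac8, Siglec1, Itgal and Ms4a7 rose together from near 0, while Mrc1 fell to a level 0.373 times that in Cre- pups by pooled CPM. Pf4, which had been higher in the postnatal Cre+ libraries, was at 0 in 3 of the 4 Cre+ libraries. Between oil-treated Cre+ pups and Cre- pups no member was called. The comparisons with Cre- and with oil share the 4 Cre+ tamoxifen libraries, so they are not independent of each other.

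Plac8 had 1, 5, 0, 1 and 1 counts in Cre- with tamoxifen, 1, 2, 0 and 0 in Cre+ with oil, and 74, 50, 44 and 13 in Cre+ with tamoxifen. No Cre+ tamoxifen library overlapped either control group in CPM. Against Cre- the log2 fold change was 4.27 ± 0.50 (edgeR adjusted p = 3.96e-08), and against oil the ratio was 44.6 (15.0 to 218; edgeR adjusted p = 1.50e-07).

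Siglec1 was at 0 in all 9 control libraries and had 17, 27, 27 and 9 counts in Cre+ with tamoxifen (85.9 ± 28.8 CPM). It was at least 28.9-fold higher than in Cre- and at least 19.7-fold higher than with oil, with 3 counts set for each control group (edgeR adjusted p = 1.04e-06 and 8.15e-06). Siglec1 passed the filter through the Cre+ tamoxifen groups, since its other groups in this table were at 0.

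Itgal had 0, 0, 1, 0 and 2 counts in Cre-, 0, 1, 2 and 0 with oil, and 11, 21, 17 and 6 in Cre+ with tamoxifen. Every Cre+ tamoxifen library lay above both control groups. The ratios were 19.9 (6.45 to 99.3) against Cre- and 13.5 (4.40 to 67.7) against oil (edgeR adjusted p = 0.000216 and 0.00118).

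Ms4a7 had 0 counts in Cre-, 2, 0, 1 and 0 with oil, and 8, 13, 5 and 3 in Cre+ with tamoxifen, without overlap. It was under the filter, and without it edgeR called it against Cre- (at least 10.5-fold, adjusted p = 1.55e-05) and against oil (ratio 7.14, 2.21 to 36.6, adjusted p = 0.0227). The call against oil was lost in 4 of the 8 fits that left out 1 library (edgeR adjusted p up to 0.170).

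Mrc1 moved the other way. It had 70, 56, 69, 50 and 69 counts in Cre-, 56, 40, 64 and 41 with oil, and 29, 25, 45 and 9 in Cre+ with tamoxifen. In CPM these were 320 ± 60.3, 296 ± 20.5 and 111 ± 40.9, and the highest Cre+ tamoxifen library (162 CPM) lay below the lowest control (262 CPM). The log2 fold change was -1.67 ± 0.29 against Cre- (edgeR adjusted p = 5.99e-05) and -1.50 ± 0.31 against oil (edgeR adjusted p = 0.000388). Oil-treated Cre+ and tamoxifen-treated Cre- pups did not differ beyond error in Mrc1 (-0.17 ± 0.27, edgeR adjusted p = 0.969).

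Pf4 had 6, 1, 2, 4 and 3 counts in Cre-, 2, 2, 5 and 1 with oil, and 0, 3, 0 and 0 in Cre+ with tamoxifen. The ranges overlapped through replicate 2 of the last group. The ratio was 0.203 (0.0379 to 0.71) against Cre- and 0.222 (0.0392 to 0.861) against oil, and unfiltered edgeR called neither (adjusted p = 0.0910 and 0.208). Without that replicate both were called (edgeR adjusted p = 0.00749 and 0.0198). Ccr2 had 3, 1 and 3 pooled counts in Cre-, oil and Cre+ tamoxifen libraries, and F13a1 0, 0 and 2.

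Against Cre-, 4 of the 9 members passed the filter and all 4 were called, 3 higher and 1 lower, where 14.3% of 4953 genes were called higher and 12.9% lower. Against oil the same counts stood beside 16.1% and 15.3%. Plac8, Siglec1 and Itgal passed the filter through the Cre+ tamoxifen groups where they are high, so nothing is read from these counts. Without the filter Ms4a7 was called as well, where 3.59% of genes were called higher against Cre- and 4.17% against oil. Without overlap between groups, 4 members were higher against Cre-, as were 6.39% of the 20722 genes of the table, and 1 was lower, as were 2.12%. Against oil those shares were 7.29% and 3.82%. Between the control groups no member and no gene was called by edgeR, with 290 genes at an unadjusted p below 0.05 and 2 genes called by DESeq2 and 3 by limma-voom.

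**Figure D2:**
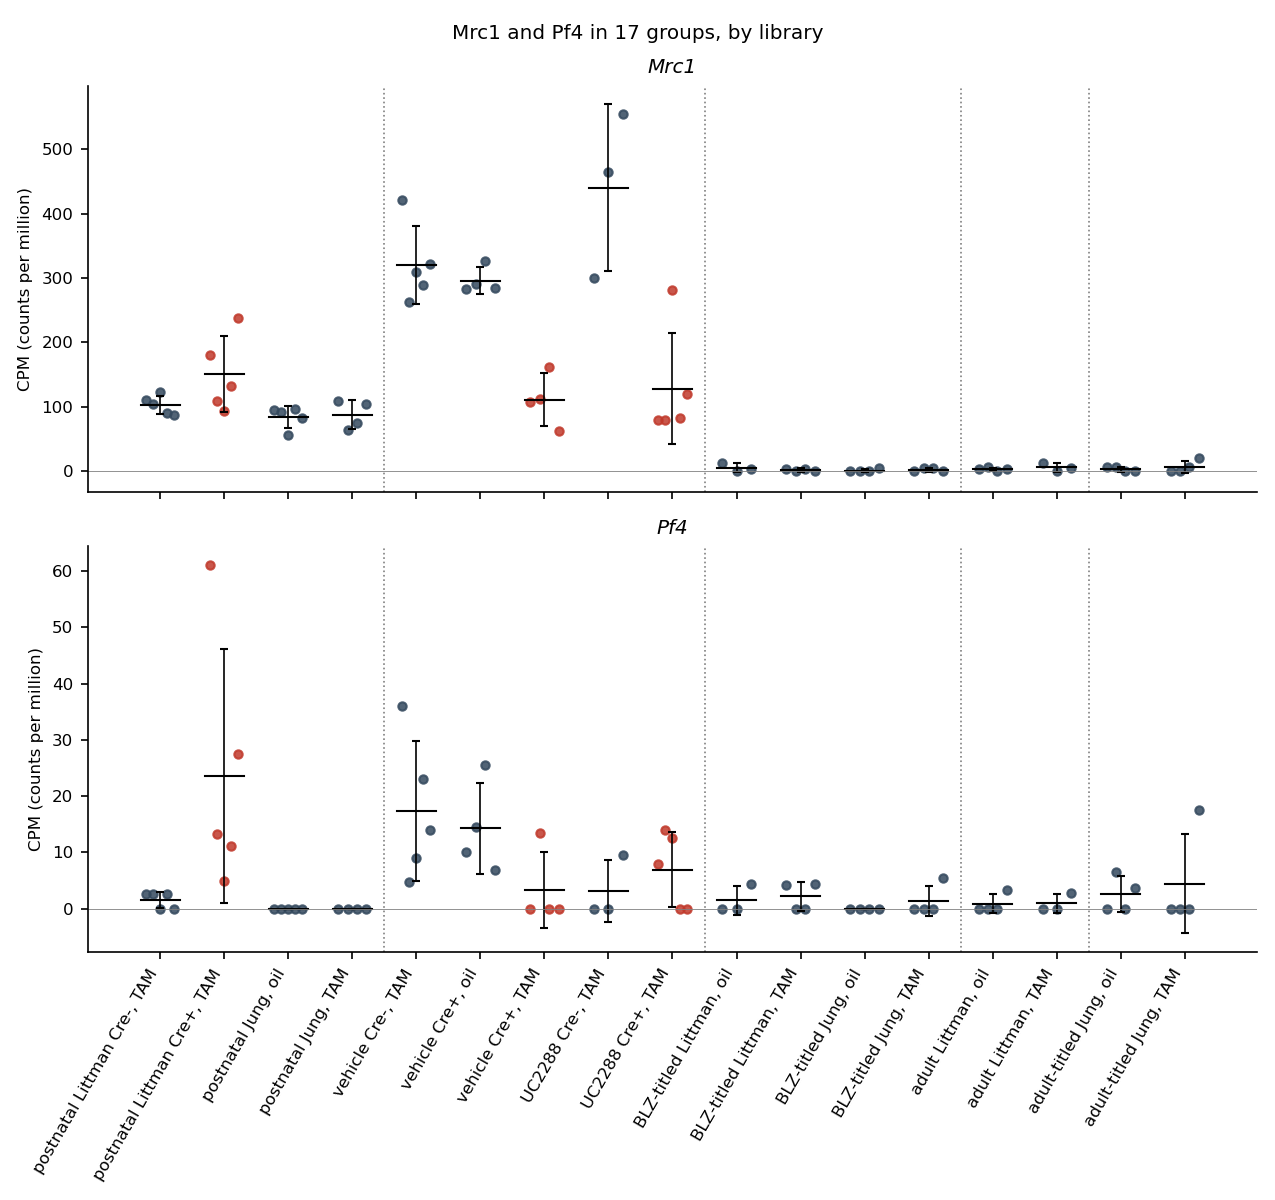
CPM of Mrc1 and Pf4 in each library of all 17 groups, with group means and SD. Mrc1 is highest in the control pups of the vehicle and UC2288 table, lies between 62.0 and 162 CPM in their Cre+ tamoxifen pups with vehicle, and is below 22 CPM in every adult library; Pf4 is highest in postnatal Littman Cre+ replicate 1, at 61.2 CPM.

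Markers of other cells moved unevenly where the 4 rising members were highest. In the 4 Cre+ tamoxifen libraries Cbr2, Ly6c2, Chil3, Hp and S100a4 had 0 counts, Fn1 had 9 and Cd44 34. In the 5 Cre- libraries Cbr2 had 6 counts, S100a4 6, Cd44 15 and Fn1 0. The 11 further monocyte genes without Lyz2 had 22 pooled counts in Cre-, nearly all of them from Cd44 and S100a4. Ly6c2, Chil3 and Hp were thus near 0 in Cre- as well, and their zeros in Cre+ show no difference. Of 11 further monocyte genes without Lyz2, 6 had any count in Cre+ with tamoxifen and 3 in Cre-, and of 8 further border genes with a row, 4 and 7. The monocyte genes without Lyz2 summed to 9.32 to 48.0 CPM in Cre- (median 14.0), 5.06 to 25.5 with oil (14.3) and 33.3 to 63.0 in Cre+ with tamoxifen (56.4). Lyz2 itself fell by 0.56 ± 0.20 on the log2 scale against Cre- (edgeR adjusted p = 0.0370) and by 1.00 ± 0.21 against oil (edgeR adjusted p = 0.000489), opposite to its direction in postnatal pups. Neutrophil genes stayed at or below 18 CPM in these groups. Of the 2 tested further border genes none was called against Cre-, and Dab2 rose by 1.14 against oil (edgeR adjusted p = 0.000635). The 8 border genes summed to 220 to 415 CPM in Cre-, 201 to 258 with oil and 311 to 479 in Cre+ with tamoxifen, mostly from Dab2 and Stab1. Slc1a3, of the other brain and blood cell list, rose by 1.27 against Cre- (edgeR adjusted p = 0.0144). The part of the genes that moved in the member values was not tested.

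**Figure D3:**
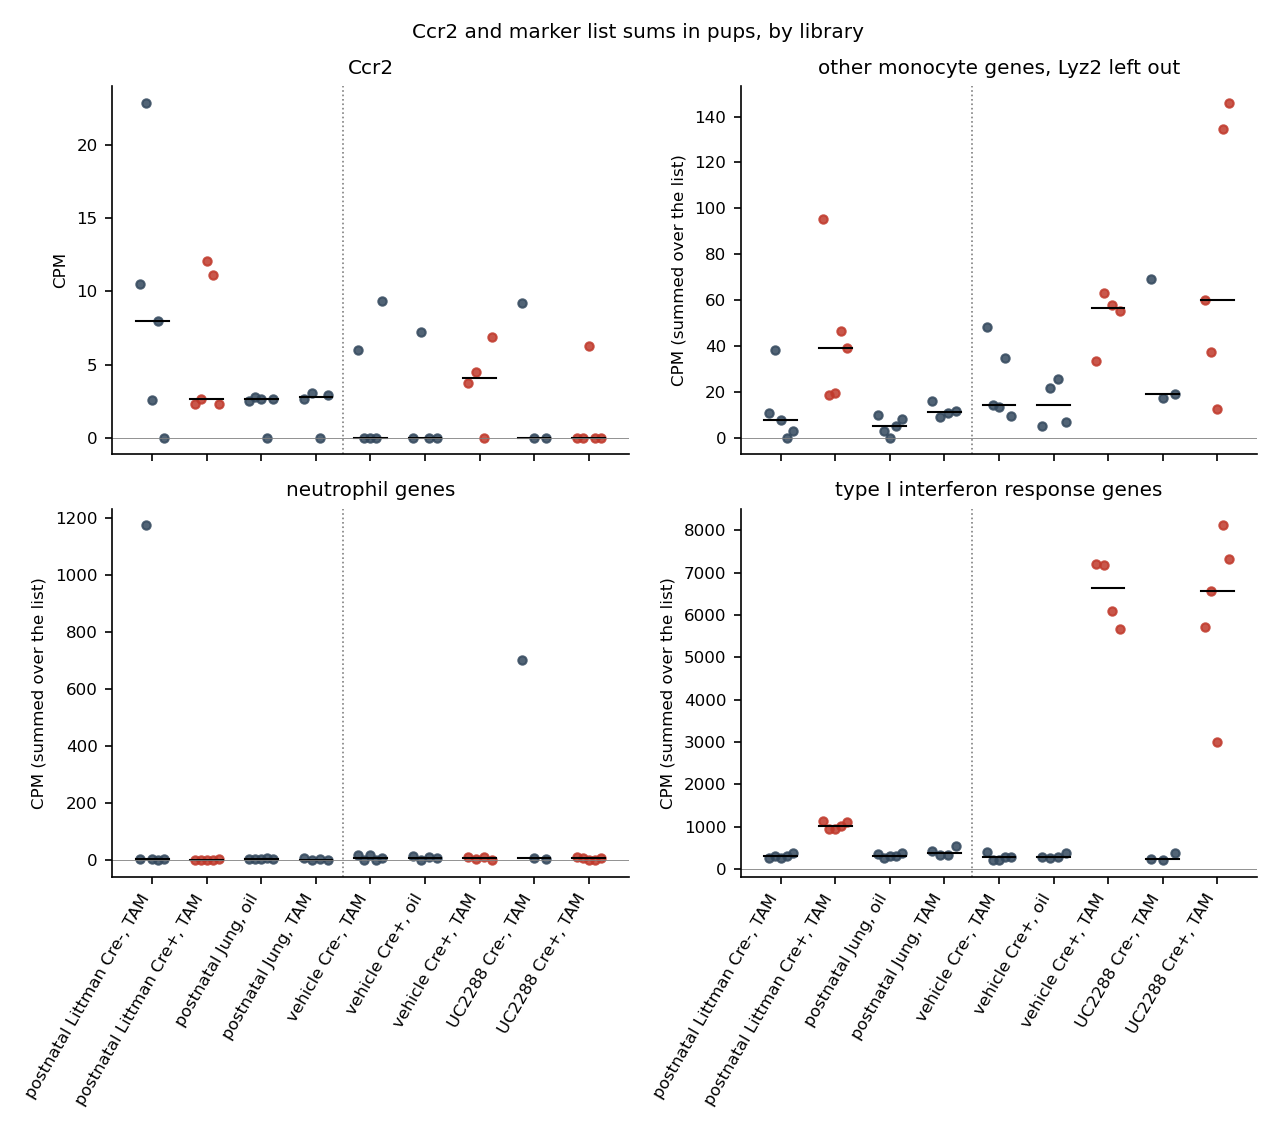
CPM, by library in the 9 pup groups, of Ccr2, of the summed monocyte genes other than Lyz2, of the summed neutrophil genes and of the summed type I interferon genes. Horizontal lines are medians; Ccr2 shows no step with Cre, 2 Cre- libraries stand apart in neutrophil genes, and interferon genes are highest in the Cre+ tamoxifen pups of the vehicle and UC2288 table.

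All 21 interferon genes passed the filter and were called higher against Cre- (median log2 fold change 5.21, all genes -0.01), as were 14.3% of genes tested. Against oil all 21 were called higher too (median 5.62, all genes 0.00), as were 16.1%. Genes low in the control groups can pass the filter through the Cre+ tamoxifen groups, so nothing is read from these counts. The summed level of the list was 206 to 390 CPM in Cre-, 261 to 367 with oil and 5660 to 7199 in Cre+ with tamoxifen. Of the 13 homeostatic microglia genes 11 fell against Cre- (median -1.20) and 11 against oil (median -1.43), so Mrc1 fell beside genes of resting microglia. Whether the members followed either group of genes was not tested.

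The same members differed in pups given UC2288. Between Cre+ and Cre- pups, both with tamoxifen and UC2288, Mrc1 was lower and Plac8, Siglec1 and Itgal were higher, 4 of 4 members that passed the filter, where 3.51% of genes were called higher and 0.485% lower. No overlap was seen for the same 4, as for 4.93% of genes higher and 2.22% lower. The 3 higher members again passed the filter through the groups where they are high, and nothing is read from the count.

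Mrc1 had 65, 54 and 117 counts in Cre- and 20, 17, 45, 11 and 19 in Cre+, or 440 ± 129 against 129 ± 86.8 CPM. The log2 fold change was -1.80 ± 0.31 (edgeR adjusted p = 8.24e-05). The highest Cre+ value, 281 CPM, came from replicate 3, and without it the change was -2.32 (edgeR adjusted p = 4.71e-08).

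Plac8 had 2, 0 and 0 counts in Cre- and 35, 62, 13, 27 and 23 in Cre+, a ratio of 47.5 (12.9 to 396; edgeR adjusted p = 1.12e-06). Both Cre- counts came from replicate 1. Without that library Cre- was at 0 and Cre+ was at least 19.0-fold higher with 3 counts set for the Cre- group, and all 8 fits that left out 1 library kept the call. Siglec1 had 0 counts in Cre- and 10, 6, 1, 4 and 7 in Cre+, at least 5.54-fold higher (edgeR adjusted p = 0.00656), and lost the call without Cre- replicate 1 (0.0535). Itgal had 2, 1 and 2 counts in Cre- and 17, 5, 2, 11 and 25 in Cre+. In all 3 genes Cre+ replicate 3 was the lowest of its group in CPM.

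The log2 fold change of Itgal was 2.77 ± 0.74 (edgeR adjusted p = 0.0201). It lost the call in 4 of 8 fits that left out 1 library (edgeR adjusted p up to 0.113), with the compared groups alone (0.0681) and by limma-voom (adjusted p = 0.250). Without Cre+ replicate 3 it was 3.00 (edgeR adjusted p = 0.00353). Ms4a7 had 0, 0 and 2 counts in Cre- and 8, 6, 0, 3 and 2 in Cre+ (ratio 5.64, 1.36 to 49.9; unfiltered edgeR adjusted p = 0.522).

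Neutrophil genes were high in UC2288 Cre- replicate 1, which also held 7 counts of Chil3 and 2 of Ly6c2. In the Cre+ libraries Ly6c2 and Hp were at 0, Chil3 had 1 count and Ccr2 1. The 21 interferon genes were all called higher (median 5.04, all genes 0.01), as were 3.51% of genes tested. They too can pass the filter through the groups where they are high, so nothing is read from the count. Of 13 homeostatic genes 0 were called (median -0.51). The homeostatic genes summed to 17488 to 22070 CPM in Cre- and to 9190 to 25681 CPM in Cre+ (median 10474). The highest of these sums was in Cre+ replicate 3, and calls of the list without that library are not given here. Of 3 tested MHC class II genes Cd74, the invariant chain, rose by 1.16 (edgeR adjusted p = 0.0466). The 8 further border genes with a row summed to 318 to 457 CPM in Cre- (median 350) and 172 to 360 CPM in Cre+ (median 275).

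Within Cre+ tamoxifen pups no member was called between UC2288 and vehicle, where 0.727% of genes were called. Siglec1 came closest: its UC2288 libraries lay between 6.24 and 44.4 CPM, all below the lowest vehicle library at 62.0 CPM, as 3.11% of genes were lower without overlap. Its log2 fold change was -1.43 ± 0.44 (edgeR adjusted p = 0.102), and without UC2288 replicate 3 it was -1.21 (0.176). Plac8 (-0.06 ± 0.32, edgeR adjusted p = 0.949), Itgal (0.22 ± 0.46, 0.852) and Mrc1 (0.22 ± 0.32, 0.768) lay close to 0 with errors that leave room for moderate changes either way. Without UC2288 replicate 3 the value of Mrc1 was -0.29 (edgeR adjusted p = 0.663).

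Within Cre- pups no member was called between UC2288 and vehicle, where 0.0202% of genes were called, and Mrc1 differed by 0.35 ± 0.29 (edgeR adjusted p = 0.702). The test of whether UC2288 changed the Cre effect called no member either, where 1.94% of genes were called, a count of 96 that ran from 1 to 533 leaving out 1 library (Mrc1 -0.13 ± 0.43, edgeR adjusted p = 0.886; Plac8 1.06 ± 1.21, 0.635; Itgal -1.11 ± 1.20, 0.616). Of the further border genes tested, Stab1 was called in it (-1.71 ± 0.46, edgeR adjusted p = 0.0463) and Dab2 was not (-0.36 ± 0.33, 0.544).

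**Figure D4:**
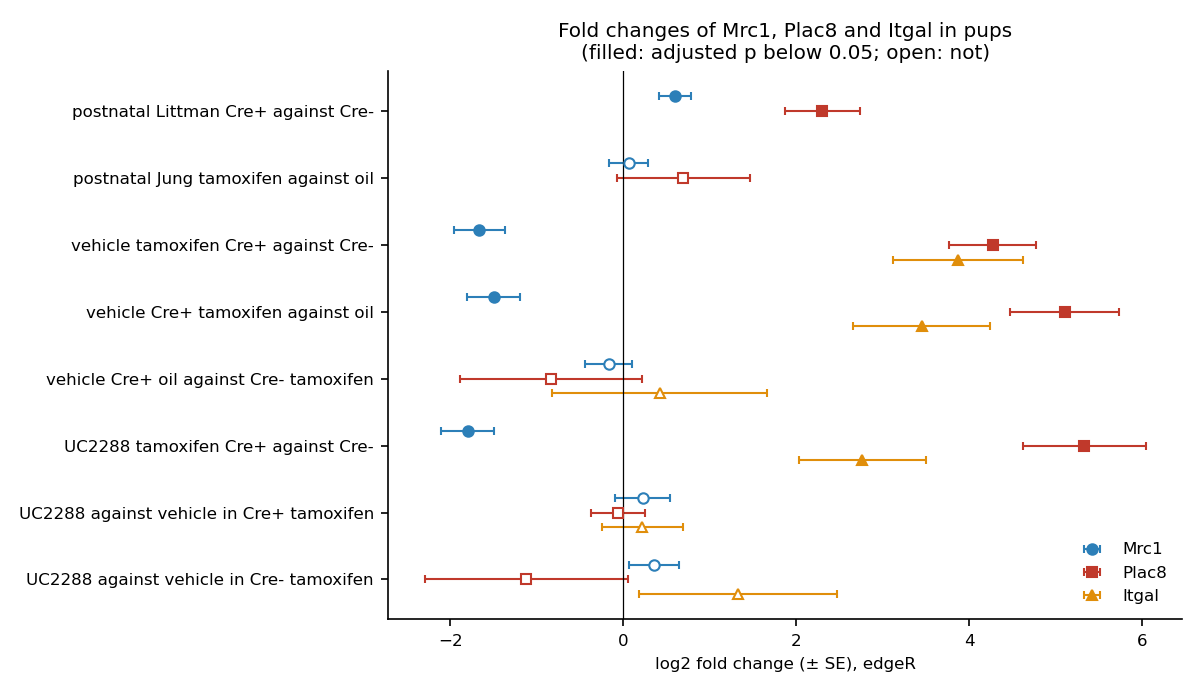
Log2 fold changes ± SE of Mrc1, Plac8 and Itgal in the pup comparisons, with filled points for edgeR adjusted p below 0.05. Mrc1 is above 0 in the postnatal Littman comparison. It is below 0 where Cre+ tamoxifen pups of the vehicle and UC2288 table are compared with Cre- or oil-treated pups. Plac8 is above 0 in all of these, and between UC2288 and vehicle in Cre+ pups neither gene was called.

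The Cre effect on Mrc1 therefore had opposite signs in the 2 Littman sets, both Cre+ against Cre- with tamoxifen. A joint fit over both tables, chosen after seeing the data, gave a difference of -2.25 ± 0.29 on the log2 scale (vehicle minus postnatal, edgeR adjusted p = 1.39e-07), and leaving out each library in turn gave -2.50 to -2.03. For Pf4, without the filter, the difference was -5.98 ± 1.03 (edgeR adjusted p = 8.31e-07). It was not called for Itgal (0.90 ± 1.31, edgeR adjusted p = 0.674) or Siglec1 (adjusted p = 0.174). For Plac8 it was not called with the filter (2.04 ± 0.84, edgeR adjusted p = 0.0738), but was called without it (2.08, 0.0291), with library totals alone (2.29, 0.0361) and in 4 of the 19 fits that left out 1 library. In that fit 1450 of 6824 genes were called, 21.2%, and 8.29% without the filter, so a difference between the sets was common. The sets also differ in table and in the vehicle injection, and may differ in pup age and tamoxifen schedule, which are not given per sample. None of these can be told apart.

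In adults the members were sparse and no comparison of tamoxifen with oil called one. In the BLZ-titled table Littman libraries with oil had 7, 15 and 0 counts of Plac8 and those with tamoxifen 2, 1, 6 and 5, while Jung libraries had 1, 1, 2 and 1 with oil and 0 in all 4 with tamoxifen. In the Jung libraries Plac8 was thus lower with tamoxifen without overlap, as were 0.913% of the genes of the table, on 5 counts in all. Littman and Jung oil libraries overlapped, and the ratio of Littman to Jung with oil was 5.09 (1.88 to 17.2). Plac8 was under the filter, and edgeR called it without the filter (2.48 ± 0.72, adjusted p = 0.0237), where 2.27% of genes were called higher without it. Of the 22 Littman counts 15 came from replicate 2, and without it the ratio was 2.43 (0.663 to 9.70) and the call was lost (1.44, edgeR adjusted p = 0.736). In all, 4 of the 7 unfiltered fits that left out 1 library lost the call. Per the treatment labels these oil groups differ in BLZ945 as well as in line, so the 2 cannot be told apart. The highest Plac8 count, 15, was in replicate 2, while the neutrophil sum of 2951 CPM was in replicate 3, where Plac8 was at 0. The 19 tested interferon genes were all called higher in the Littman oil group (median 3.80), as were 6.72% of genes tested. Genes low in the Jung groups can pass the filter through the Littman groups, so nothing is read from the count.

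Siglec1 had 2, 0 and 1 counts with oil and 3, 1, 0 and 2 with tamoxifen in BLZ Littman libraries and 0 in all 8 Jung libraries of that table. Itgal had 2, 1 and 0 counts with oil and 4, 2, 1 and 5 with tamoxifen in the Littman libraries (ratio 2.99, 0.806 to 16.5). Both overlapped between oil and tamoxifen, where 0.0581% of genes were called. In the Jung libraries of that table no gene was called by edgeR, with 287 at an unadjusted p below 0.05. The monocyte genes without Lyz2 had 53 pooled counts in BLZ Littman oil and 132 in tamoxifen libraries, against 2 and 7 in the Jung libraries. Of the 53 counts, 42 came from replicate 3, the oil library with the high neutrophil sum, and the tamoxifen libraries had 41, 20, 5 and 66. Per the treatment labels the Littman and Jung libraries differ in BLZ945 as well as in line.

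Ccr2 in adult Littman mice without BLZ945 had 3, 3, 3 and 2 counts with oil and 1, 6 and 2 with tamoxifen (9.00 ± 1.56 against 9.53 ± 8.78 CPM). In the adult-titled Jung libraries it had 1, 1, 0 and 1 counts with oil and 0, 1, 5 and 2 with tamoxifen, and Pf4 had 0, 2, 0 and 1 and 0, 0, 0 and 5. These ranges overlapped. In adult Littman mice 0.0181% of genes were called and in adult-titled Jung mice none, with 113 at an unadjusted p below 0.05.

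The genes whose log2 CPM most resembled each member across libraries were listed by Pearson's r, as a description. Across the 19 postnatal libraries Mrc1 was most like Txn1 (r = 0.871), Milr1 (0.870) and Dab2 (0.861), and Plac8 most like Mpeg1 (0.908), C3ar1 (0.893) and Ctsc (0.886). Across the 21 vehicle and UC2288 libraries Mrc1 was most like Slc29a1 (0.905), Igfbp4 (0.904) and Tmem176b (0.903). In the same libraries Plac8 was most like the interferon genes Oasl1 (0.960) and Ifit3b (0.959), and Siglec1 most like Ifi207 and Oas2 (both 0.954). Itgal was most like Cd36 (0.923) and Cd69 (0.920). The libraries share the group differences and the depth, which raise such values. With group means removed, the leading partners were Txn1 (0.838) and Olfml3 (0.872) for Mrc1 in the 2 tables, and Suclg1 (0.745) for Plac8, Cd69 (0.885) for Siglec1 and Med22 (0.818) for Itgal in the vehicle and UC2288 table.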

How the data were processed

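Bulk CEL-Seq2 libraries of 500 sorted cells were measured in 70 samples. The authors deposited 5 tables of raw whole counts, 1 row per gene, without normalisation. Per the submitters' processing notes, UMI-tools, Trim Galore, HISAT2 and featureCounts were used on GRCm38. Versions, strand setting and identifier handling: not given in the sources used here. CPM divides by column totals.

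Each table was fitted alone in edgeR 4.0.16 (R 4.3.3), all groups in 1 quasi-likelihood fit, with TMM factors, filterByExpr and library totals recomputed over filtered genes. A first run kept column totals, and its effect is given as an alternative. Calls are at Benjamini-Hochberg adjusted p below 0.05 over all tested genes. Alternatives were DESeq2 1.42.0, limma-voom 3.58.1, RLE factors, library totals alone, no filter, compared groups only, sex by counts, a replicate block and leaving out libraries. The joint fit, the fit without 2 postnatal libraries, the unfiltered fits without each library and the pooled ratios without each library were added after seeing the data. Exact 95% intervals use pooled counts. A group at 0 takes a floor of 3 counts. The scripts were tested on simulated data. No 2 replicates held identical values or agreed within counting noise (113 pairs, highest chi-square p 2.24e-06).

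Genes named are the members, the fixed lists' called genes and, per member, the 3 most alike. Members and lists were chosen with earlier results of these data known.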

Additional observations from a re-analysis of the deposited data

Results flagged for a closer look

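Mrc1 in UC2288 Cre+ replicate 3 was 281 CPM, far from the 79.1 to 121 CPM of the other 4 libraries, and Mrc1 in vehicle oil-treated Cre+ replicate 3 was 326 CPM, apart from the 283 to 290 CPM of the other 3. These were 2 of 18 groups of members examined, and chance alone sets about 1 in 20 groups apart. In the first library Plac8, Siglec1 and Itgal were the lowest of the group as well.

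The Cre effect with tamoxifen differed between the postnatal and the vehicle sets for Mrc1 by -2.25 and for Pf4 by -5.98 on the log2 scale, both called by a joint edgeR fit. The tests of these differences were chosen after seeing the data.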

How the results depend on the processing

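Of 668 log2 fold changes recomputed under alternatives, 621 kept direction and side of the threshold, 25 lost the call, 4 gained one and 18 changed sign. All 18 were uncalled. The 127 CPM levels under other settings all moved by less than 1 SD. The number of members called in postnatal Littman pups, 2, was 1 with limma-voom, 4 without the filter, 0 with the compared groups alone, where Plac8 fell under the filter, 0 without Cre+ libraries 1 and 5, and 0 to 2 leaving out 1 library. Between Cre+ and Cre- pups with UC2288 it was 4, 2 with the compared groups alone and 2 to 4 leaving out 1 library. Between BLZ-titled Littman and Jung oil libraries it was 0, and 1 without the filter. With column totals kept as library sizes, no number of members called changed.

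Sign changes were these. Itgal between UC2288 and vehicle in Cre+ pups was -0.12 by limma-voom and -0.33 with a replicate block, and -0.29 to 0.53 leaving out 1 library. The UC2288 by Cre difference of Mrc1 was 0.0026 with a replicate block and -0.65 to 0.19 leaving out 1 library. Leaving out 1 library also gave Itgal -0.48 to 1.37 and Plac8 -1.86 to 0.12 between vehicle oil Cre+ and Cre- pups, Mrc1 -0.29 to 0.43 and Plac8 -0.38 to 0.18 between UC2288 and vehicle in Cre+, and Mrc1 -0.061 to 0.19 in Jung pups.

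Replicate numbers paired no samples: over 48 pairs in 13 comparisons the deviations correlated between -0.359 and 0.344, and in 0 comparisons did every pair exceed 0.1. With a replicate block, Itgal between Cre+ and Cre- pups with UC2288 lost its call (2.15, edgeR adjusted p = 0.167), and Mrc1 in postnatal Littman pups kept it (0.56, edgeR adjusted p = 0.0233).

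All genes called numbered 552 in postnatal Littman pups and 264 without Cre+ libraries 1 and 5. With UC2288 they numbered 198 between Cre+ and Cre-, and 111 with the compared groups alone. Between UC2288 and vehicle in Cre+ they numbered 36, 2 with the compared groups alone, 176 by DESeq2 and 1 to 266 leaving out 1 library. For the UC2288 by Cre difference they numbered 96, and 1 to 533 leaving out 1 library. With library totals alone, calls split 261 higher and 297 lower against 323 and 229 in postnatal Littman pups, and 1027 and 393 against 710 and 637 between vehicle Cre+ and Cre-. F13a1 and Cd163 had at most 2 counts in any library, so no difference in them was detectable at this depth.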
